A study of Homo sapiens with 3 samples.

Results

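The regions described here were 866 of the 5968 MEIS1 peaks called in CWR22Rv1-LV-MEIS1 prostate cancer cells. A peak was kept where HOMER annotated it as intergenic outside a repeat, where its summit lay at most 100 kb from the annotated transcription start site (TSS), and where it overlapped no MEIS1 peak of the HOXB13ko-LV-MEIS1 cells by 1 bp or more. The members were therefore chosen by the measured presence of a peak in one line and the absence of a called peak in the other. They made up 14.5% of the LV-MEIS1 list used here and are called intergenic HOXB13-dependent peaks below, where dependent means only that this overlap was absent. The study describes a longer LV-MEIS1 list. Its further peaks were not analysed here, and every share below refers to the list used.

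CWR22Rv1 is a human prostate carcinoma cell line grown from a relapsed xenograft. LV-MEIS1 cells expressed MEIS1 from a lentiviral vector and kept their own HOXB13. HOXB13ko-LV-MEIS1 cells carried the same vector after HOXB13 had been knocked out with CRISPR, and this line was a pool of recombined knockout clones. MEIS1 was immunoprecipitated 3 times from LV-MEIS1 cells and 2 times from HOXB13ko-LV-MEIS1 cells, and each set was pooled by the authors into 1 peak list. The headers of both lists name the same input of CWR22Rv1 DNA, while the methods speak of input specific to each line, and this difference could not be settled. The 2 lists rest on 202428594 and 105763683 tags, against 39102495 input tags. Because each line has 1 list, no value below carries a replicate error. The knockout, the cloning and separate transduction of that line, the number of immunoprecipitations and the depth cannot be told apart.

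MEIS proteins are TALE homeodomain factors that bind the core TGACA and serve as partners of PBX and HOX proteins on DNA. HOXB13 is one of several posterior HOX proteins of the prostate, and the study reports its gene as the HOX gene with the highest expression there. Posterior HOX proteins favor the core TTTAT, written ATAAA on the other strand. TGATTTAT is a joined site of the kind that PBX binds with HOX proteins of the Abd-B type, although HOXB13 itself is described as pairing with MEIS1 in preference to PBX. Intergenic binding sites of such factors often lie in enhancers, which act on genes at a distance, so the nearest gene named by an annotation is a label of position and not a measured target.

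The sequences that carry the findings below are from hg38 and are shown 5′ to 3′ on the strand given. The first set shows 8 of the 9 members in which TGACA was followed by TTTAT 2 bp downstream, the arrangement in which MEIS1 and a HOX protein would sit side by side. Capitals mark both cores.
LOC105374960, chr6:19465971-19466000, minus strand: cattcctccTGACAttTTTATgactttgtt
LINC00838, chr10:33799540-33799569, plus strand: aaaacacttTGACAttTTTATtgtctctct
IL1B, chr2:112869493-112869522, plus strand: ttgccaactTGACAgaTTTATtagttgaca
LOC100996263, chr1:117562771-117562800, plus strand: caaaggagcTGACAttTTTATagtcaacaa
EEF2K, chr16:22202022-22202051, plus strand: tttgttttgTGACAgcTTTATtgctgttat
SEH1L, chr18:12918314-12918343, plus strand: cagaggttgTGACAgtTTTATgaggtggtg
FERD3L, chr7:19210758-19210787, plus strand: cgtccacttTGACAtgTTTATcatttagtg
EFEMP1, chr2:55843442-55843471, minus strand: cccagatctTGACAgtTTTATagtccttgg

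The second set shows TGATTTAT, in capitals, in 5 members of high fold enrichment that held it. The set is shown because no other word of that length had so large an excess at the summits over the flanks, and it was picked with the word counts in view.
LINC01625, chr6:139486134-139486163, plus strand: tgccagctaagTGATTTATaggtaataatt
STOX2, chr4:183758305-183758334, minus strand: gctcacccaaaTGATTTATtttttgtttgc
SPINK4, chr9:33225713-33225742, plus strand: tgcaaatagaaTGATTTATgagtcttagtc
PAX8, chr2:113325032-113325061, plus strand: ctcgctctccgTGATTTATtacttgccctg
RALB, chr2:120245641-120245670, plus strand: agagctttctgTGATTTATggcctgagtgc

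The third set gives 121 bases centered on the summit of the strongest member, of the FOLH1 member and of the stronger STEAP4 member, all read on the plus strand. Capitals mark the MEIS core, the HOX core and the forkhead word TGTTTAC, each on either strand.
PCED1B-AS1, chr12:47245836-47245956: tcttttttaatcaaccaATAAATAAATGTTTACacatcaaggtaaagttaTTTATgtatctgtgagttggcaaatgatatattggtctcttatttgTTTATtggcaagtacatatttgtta
FOLH1, chr11:49283424-49283544: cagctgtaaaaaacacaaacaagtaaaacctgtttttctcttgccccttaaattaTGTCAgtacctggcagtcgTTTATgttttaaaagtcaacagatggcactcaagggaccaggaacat
STEAP4, chr7:88391353-88391473: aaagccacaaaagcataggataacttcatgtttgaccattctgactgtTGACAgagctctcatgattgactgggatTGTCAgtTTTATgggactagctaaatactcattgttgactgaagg

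Of all 5968 LV-MEIS1 peaks, 92.3% overlapped no HOXB13ko-LV-MEIS1 peak. Among the 946 intergenic non-repeat peaks within 100 kb the share was 91.5%, leaving the 866 members and 80 retained peaks. The rule used this overlap, so the shares describe the selection only. The share without overlap was 92.5%, 96.2% and 95.8% in the lower 3 quartiles of fold enrichment of these 946 peaks and 81.9% in the highest, and it was 72.1% of the 111 peaks with a fold enrichment of 10 or more. The strongest retained peaks were annotated to HSPB1, which encodes a small heat shock protein, at 18.6, and to OACYLP at 15.3.

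Fold enrichment, the authors' ratio of pileup at the summit to local background with a small constant added to both, had a median of 6.28 over the members. It ran from 2.25 to 16.4. The median over all LV-MEIS1 peaks was 6.17, that of retained peaks 8.49, that of intergenic dependent peaks beyond 100 kb 6.14 and that of intronic dependent peaks 6.16. Members had a median width of 285 bp, between 200 and 907 bp. The median −log10 q-value was 12.2, and 831 members reached 5. A fold enrichment of 10 or more was reached by 80 members, or 9.24%.

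Members lay from 1011 to 99395 bp from the annotated TSS, with a median of 27985 bp. They were more often upstream (600 members, 69.3%, 95% Wilson interval 66.1 to 72.3) than downstream (266 members). The upstream share was 91.9% of the 99 members within 5 kb and 54.8% of the 239 members beyond 50 kb. Intergenic annotation leaves out gene bodies, which lie downstream of a TSS, and the part of this in the upstream share was not tested. Fold enrichment was similar near and far, with medians of 6.14 within 5 kb and 6.11 beyond 50 kb.

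**Figure D1:**
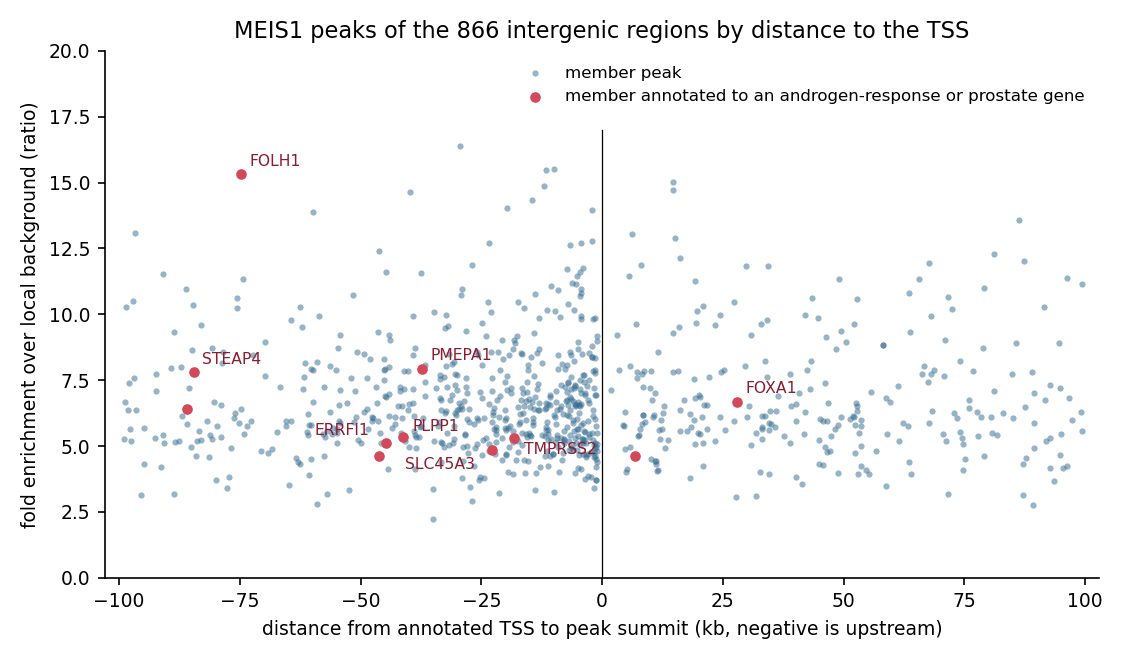
Fold enrichment of each of the 866 members (vertical axis, ratio over local background) against the signed distance of its summit from the annotated TSS (horizontal axis, kb, negative upstream), with 1 point per peak. Red points are the 11 members annotated to androgen-response or prostate genes, of which FOLH1 is highest at 15.3, and points are denser on the upstream side (600 of 866).

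At the distance limit the members LINC01899 and LINC00583 lay 99395 bp and LOC286178 lay 99278 bp from their TSS, with fold enrichments of 5.56, 11.2 and 6.30. Just beyond it, and so left out, were peaks of EVX1-AS at 100056 bp, FRMD3 at 100592 bp and CLDN23 at 101147 bp, with 4.71, 11.5 and 6.90. At the near end, members lay 1011 bp upstream of the annotated TSS of LAPTM4A (fold enrichment 4.80), 1070 bp upstream of that of CHD4, a chromatin remodeling ATPase (8.996), and 1084 bp upstream of that of CYSRT1 (4.41). The CHD4 summit lay inside the GENCODE gene model of CHD4. On the other selecting value, the members closest to a HOXB13ko-LV-MEIS1 peak were one annotated to LOC101927468, with 23 bp between them, and 2 annotated to LOC102723360, at 67 and 71 bp. In all, 13 members lay within 500 bp of such a peak, while the median gap was 470564 bp over the 861 members on a chromosome or contig that had one.

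The MEIS core was common at the summits. TGACA lay within 50 bp of the summit in 495 members (57.2%, 95% Wilson interval 53.8 to 60.4), against 19.2% of the flanking windows 450 to 550 bp away (adjusted exact p = 1.01e-51). Each word was compared between the summit and both flanks of the same peaks by a two-sided exact binomial test on discordant peaks, with the larger p of both flanks kept and Benjamini-Hochberg adjustment over 16 words. The 6-base form TGACAG was found in 30.4% of summits and 7.27% of flanks (adjusted exact p = 1.04e-31). The rule used neither words nor positions within a peak. Peaks are the units of these tests, so the p-values describe 1 pooled list and not the spread between cultures.

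The core was also placed close to the summit. Among members with TGACA in the window, the nearest copy lay a median of 12 bp from the summit, and in 70.9% it lay within 20 bp. Bins of 20 bp next to the summit held 0.222 copies per member, 4.59 times the 0.0483 copies of bins 300 to 500 bp away. In the FOLH1 member shown above, the copy lay 3 bp from the summit.

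**Figure D2:**
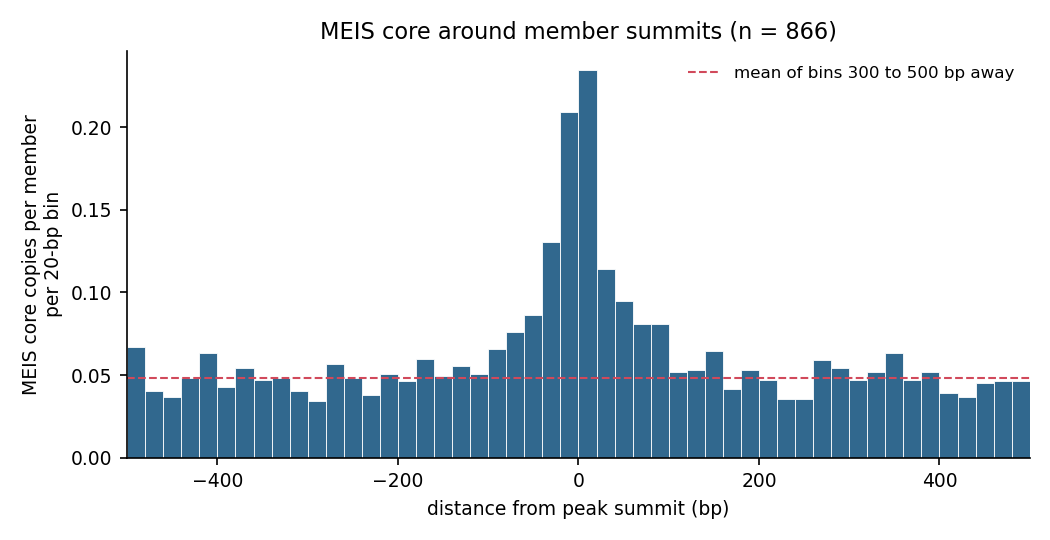
Copies of the MEIS core per member in bins of 20 bp (vertical axis) against distance from the peak summit in bp (horizontal axis), over 866 members, with the mean of the bins 300 to 500 bp away as a dashed line at 0.0483. Bars next to the summit average 0.222.

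HOX words were the next group. TTTAT was present at 49.0% of summits and 32.0% of flanks (424 members, adjusted exact p = 8.86e-13). The joined PBX with HOX word TGATTTAT was much rarer and more concentrated at summits, at 9.24% against 0.693% (80 members, adjusted exact p = 1.30e-16). Read from the other strand as ATAAATCA, it was also the 8-base word with the largest excess of all that were counted, found at 80 summits and in 5 and 7 of the lower and upper flanks. Of the 424 members with TTTAT, 344 lacked the joined word. The HOXB13 form CAATAAA was at 6.58% of summits and 2.60% of flanks (adjusted exact p = 0.00351). The other HOXB13 form, TCGTAAA, was at 0.924% and 0.289% and missed the threshold of 0.05 (adjusted exact p = 0.477). The joined PBX with MEIS word TGATTGACA was found at 13 summits (1.50%) and in no flank (adjusted exact p = 0.000558).

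The arrangement of TGACA followed by TTTAT after 2 bp was found in 9 members (1.04%) and 0.115% of flanks, which missed the threshold (adjusted exact p = 0.0872). Within 100 bp of the summits, 10 such pairs were counted at this gap and orientation. The other 123 gaps and orientations, up to 30 bp, held 2.95 pairs on average and at most 9. The arrangement was already known from the whole LV-MEIS1 list, which holds these members. Neither its test nor these counts are therefore independent support for it. In 5 of the 9 members, most of them shown first above, the 2 bases between the cores began with G, which extends the MEIS core to TGACAG. The 9 members ran from LOC105374960 at a fold enrichment of 12.2 and LINC00838 at 11.9 to EFEMP1 at 5.49, with a median of 6.61 against 6.26 for all other members. IL1B, which encodes the cytokine interleukin-1 beta, had its member 32722 bp upstream at 7.62.

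Words of other factors separated summits from flanks as well. The forkhead word TGTTTAC, bound by FOXA1 among others, was at 11.4% of summits and 1.62% of flanks (99 members, adjusted exact p = 4.30e-16). The NFI half-site TTGGCA was at 14.8% and 5.31% (adjusted exact p = 6.19e-10). Smaller excesses passed the threshold for the GATA word AGATAA (11.4% against 7.16%), the E-box CAGCTG (7.27% against 3.64%) and the AP-1 word TGANTCA (6.70% against 2.89%), with adjusted exact p of 0.00890, 0.00237 and 0.00176. The androgen receptor half-site AGAACA was at 7.85% of summits and 7.91% of flanks (adjusted exact p = 0.992). TAATTA, favored by anterior homeodomains, was at 3.70% and 3.98%, and the ETS word CCGGAA at 1.27% and 1.21%, with adjusted exact p of 0.992 and 1.0. In all, 11 of 16 words passed, but the words are not independent. TGACAG and TGATTGACA contain TGACA, and TGATTTAT and CAATAAA contain the HOX core on one of the strands. The E-box can share bases with TGACAG, as in TGACAGCT at 42 summits and in 4 and 4 flanks, and this overlap was not separated. A word match describes the letters and is not a measurement of which factor was bound.

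**Figure D3:**
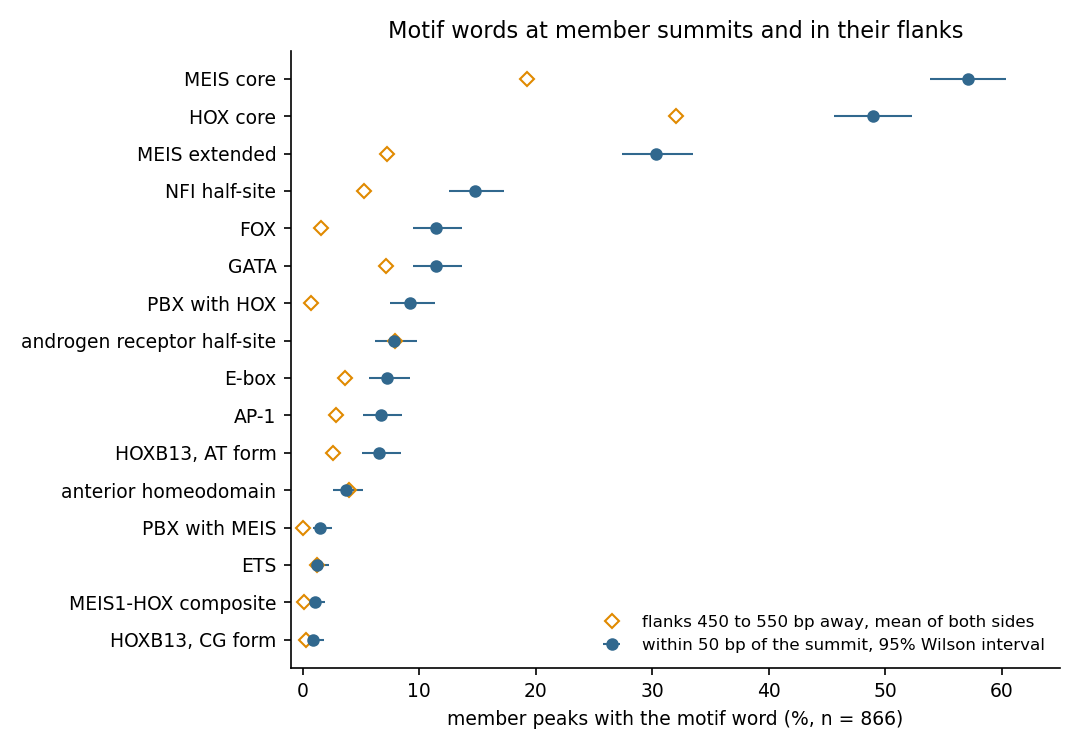
Share of the 866 members that hold each motif word (horizontal axis, percent) within 50 bp of the summit (filled points with 95% Wilson intervals) and in flanks 450 to 550 bp away (open diamonds, mean of both sides). The MEIS core stands at 57.2% against 19.2%, the HOX core at 49.0% against 32.0%, and the androgen receptor half-site at 7.85% against 7.91%.

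Members with and without the MEIS core held the other words at different shares, which are given as a description. Among the 371 members without TGACA, TGATTTAT was in 14.8%, TGTTTAC in 15.4% and TTTAT in 55.8%. Among the 495 members with TGACA these shares were 5.05%, 8.48% and 43.8%. None of the MEIS core, the HOX core and the forkhead word was found within 50 bp of the summit in 141 members (16.3%). The median fold enrichment was 6.41 with TGACA and 6.11 without, and the share with TGACA was 51.6%, 56.0%, 59.3% and 61.8% from the lowest to the highest quartile of fold enrichment.

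The 10 strongest members showed the same mixture. PCED1B-AS1 on chromosome 12 had the highest fold enrichment, 16.4, at 29453 bp upstream of the TSS of this antisense RNA gene. Its summit held TTTAT and TGTTTAC but no TGACA. The member of CACNA1D, the gene of an L-type calcium channel subunit, had 15.5 with TGACA 14 bp from the summit. It lay upstream of the annotated TSS but inside the GENCODE gene model of CACNA1D. LINC01625 followed at 15.5 and FOLH1 at 15.3, then the pseudogene NPY6R at 15.0, LOC105375713 on chromosome 8 at 14.9 and NRSN2 at 14.7. The NRSN2 summit lay 178 bp from the GENCODE TSS of another protein-coding gene, TRIB3. STOX2, a storkhead box gene, had 14.6. SPINK4 and SERPINB3, which encode protease inhibitors, had 14.35 and 14.04. Their summits lay inside the GENCODE gene models of SPINK4 and SERPINB11, respectively. TGACA was within 50 bp of the summit in 5 of these 10 and TTTAT in 8. Of the 5 without TGACA, LINC01625, STOX2 and SPINK4 held TGATTTAT, and all 5 held TTTAT.

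The shares at members were set against 3 other groups of LV-MEIS1 peaks by a two-sided Fisher's exact test of TGACA, adjusted over the 3 comparisons. TGACA was in 56.3% of the 80 retained peaks, a difference of 0.909 percentage points with a 95% interval from -9.95 to 12.3 (adjusted exact p = 0.906). It was in 60.9% of the 581 dependent intergenic peaks beyond 100 kb, a difference of -3.77 points, interval -8.88 to 1.41 (adjusted exact p = 0.472). It was in 56.6% of the 1664 dependent intronic peaks, a difference of 0.549 points, interval -3.53 to 4.59 (adjusted exact p = 0.906). None of these differences passed the threshold, and the interval for retained peaks is wide because they number 80.

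The other words are given for these groups without a test. TTTAT was at 45.0% of retained, 67.3% of farther intergenic and 54.5% of intronic summits, with 26.9%, 46.7% and 37.8% in their flanks. TGATTTAT was at 8.75%, 10.2% and 9.74%, and TGTTTAC at 8.75%, 9.98% and 11.6%. The AP-1 word was at 1.25% of retained summits and 6.70% of member summits. The HOXB13 forms went the other way, with CAATAAA at 8.75% of retained and 6.58% of member summits, and TCGTAAA at 1.25% and 0.924%. Such low shares of 80 retained peaks rest on very few peaks. The arrangement with a 2-bp gap was in none of the 80 retained peaks, 1.20% of the farther intergenic and 1.50% of the intronic peaks. A count of 0 in 80 peaks allows a share of up to 3.75%.

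Within the members, the share with TTTAT was higher in bins farther from the TSS. It was at 33.3% of summits within 5 kb, 40.6% from 5 to 10 kb, 41.6% from 10 to 25 kb, 49.1% from 25 to 50 kb and 65.3% from 50 to 100 kb. In the flanks the shares were 29.3%, 24.8%, 31.8%, 29.1% and 39.1%. The GC content of the summit windows fell over the same bins from 47.9% to 40.0%, and its part in the trend was not tested. TGACA did not follow this order, with 47.5% within 5 kb, 60.1% from 25 to 50 kb and 54.8% beyond 50 kb.

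**Figure D4:**
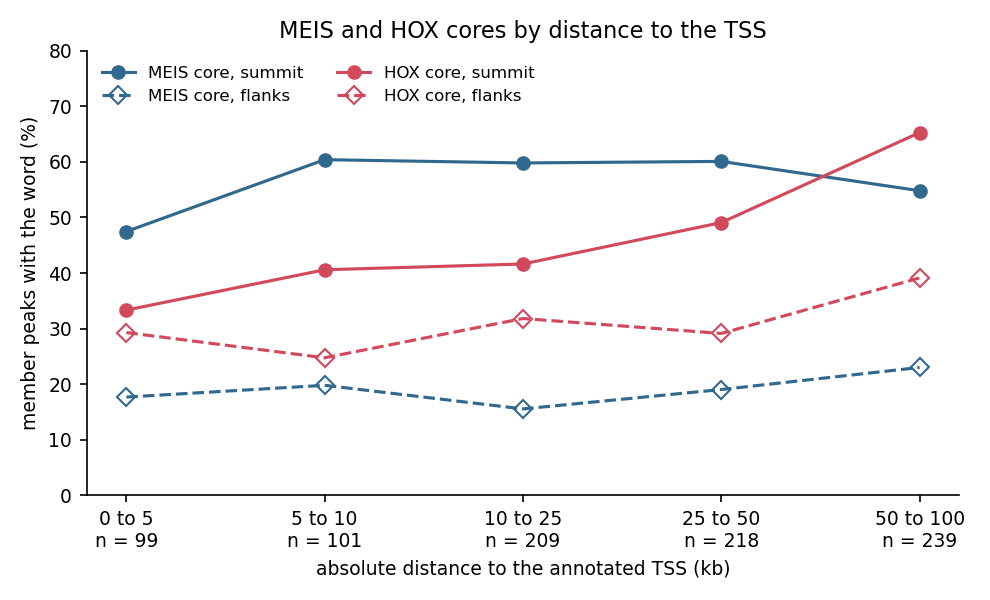
Share of members with the MEIS or HOX core (vertical axis, percent) in 5 bins of absolute distance to the annotated TSS (horizontal axis, kb, with the number of members in each), at summits (filled points) and in flanks (open diamonds). The HOX core at summits goes from 33.3% to 65.3%, and in flanks from 29.3% to 39.1%.

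The members were annotated to 759 gene names, 673 of them with 1 member, 73 with 2 and 13 with 3 or more. Of the 866 members, 574 were nearest to the TSS of a protein-coding gene and 254 to that of a noncoding RNA gene. The GENCODE annotation, release 44, placed a protein-coding gene over 130 summits (15.0%). It placed a lncRNA gene without a protein-coding gene over 173 (19.98%), so intergenic holds for the authors' annotation only. The TSS of a GENCODE protein-coding gene lay within 1 kb of 26 summits. For 497 of the 574, the protein-coding gene of nearest TSS in GENCODE was the same. No HOXB13ko-LV-MEIS1 peak at all was annotated to 649 of the gene names (85.5%), while 110 (14.5%) had one. Of all 20052 protein-coding genes of RefSeq, 1120 had one, so its absence is not particular to these names, which include noncoding genes. No LV-MEIS1 peak other than members was annotated to 488 of the gene names (64.3%).

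LOC101929411, an uncharacterized noncoding RNA gene on chromosome 3, had the most members, 8. They spanned 102089128 to 102238736 with fold enrichments from 4.10 to 11.4, and 6 of the 8 held TGACA. All of their summits but the first along the chromosome lay inside the GENCODE gene model of the protein-coding gene ZPLD1. LOC101929411 also had 1 HOXB13ko-LV-MEIS1 peak annotated to it. The 3 members of SPINK4 had 14.3, 11.1 and 6.01 and lay from 6001 to 14451 bp upstream. Those of CARTPT, which encodes a neuropeptide precursor, had 8.02, 9.23 and 8.24 at 29507 to 33748 bp downstream, and none held TGACA. SP1, a zinc finger transcription factor, had 7.66, 5.31 and 4.02 between 8869 and 14066 bp upstream. TCIM (10.3, 9.23 and 6.30) and ZBTB10 (10.8, 7.74 and 6.26), both on chromosome 8, had their members spread over more than 100 kb and over less than 10 kb, respectively. AGTR1, CD2AP, LINC02111, LOC102723360, LOC286178, MGST1 and SYPL1 also had 3 members each. In all, 95 members (10.97%) stood in 44 runs in which neighbors were at most 10 kb apart.

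Among the 8 gene lists examined, genes of androgen response and prostate lineage had the highest share with a member. Of 35 such genes, 8 (22.9%) had 11 members, against 2.43% of all 20052 protein-coding genes of RefSeq. The median fold enrichment of the 11 was 5.34, against 6.31 for the members of all protein-coding genes. A wider count gives 18 of these 35 genes with any LV-MEIS1 peak, against 2933 of 20052, and 2 with a HOXB13ko-LV-MEIS1 peak, against 1120. These counts are descriptive, and the length of intergenic sequence around the genes was not taken into account.

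FOLH1 encodes prostate-specific membrane antigen. Its member at chr11:49283266-49283711 lay 74814 bp upstream with a fold enrichment of 15.3 and a −log10 q-value of 50.3. FOLH1 has a near-identical copy on the same chromosome, and how reads were divided between them was not tested. STEAP4, an androgen-responsive metalloreductase, had members 84500 and 85950 bp upstream with 7.80 and 6.41. Both held TGACA and TTTAT within 50 bp of the summit. PMEPA1, an androgen-induced inhibitor of TGF-beta signaling, had members 37277 and 46284 bp upstream with 7.94 and 4.62, neither with TGACA.

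FOXA1, the forkhead pioneer factor of prostate epithelium, had members 27911 and 6733 bp downstream with 6.69 and 4.60, and only the nearer one held TGACA. The farther one lay inside the GENCODE gene MIPOL1. PLPP1, a lipid phosphatase, had 5.34, and TMPRSS2, an androgen-regulated serine protease, had 5.32 at 18322 bp upstream of the annotated TSS but inside the GENCODE gene model of TMPRSS2. ERRFI1, a feedback inhibitor of EGFR, had 5.11 and SLC45A3, known as prostein, 4.83. No HOXB13ko-LV-MEIS1 peak was annotated to any of these 8 genes, as was the case for 85.5% of all gene names with a member.

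Among 64 FOX, SOX, GATA and TBX factor genes, 6 had 7 members (9.38%). TBX3 had the strongest at 10.2, followed by SOX4 at 7.44, FOXA1, FOXN2 at 5.31, FOXP2 at 5.29 and FOXO3 at 4.97. Cell cycle and tumor suppression genes had 3 of 42 (7.14%), which were FOS at 7.64, KLF6 at 6.11 and BTG2 at 4.06. Growth factors and their receptors had 3 of 62 (4.84%), the ligands FGF1 at 7.44, IGF1 at 6.19 and 3.70, and VEGFC at 5.12. The IGF1 member of 3.70 lay 134 bp from a GENCODE TSS of IGF1. Wnt and Hedgehog genes had 3 of 63 (4.76%), the secreted Wnt inhibitor SFRP2 at 8.93, the receptor FZD8 at 8.51 and the ligand WNT16 at 6.61. TGF-beta and BMP genes had 1 of 44, the target gene ID3 at 5.66, and HOX and TALE homeobox genes 1 of 56, TGIF1 at 6.66. None of the 40 genes on the proteoglycan and partner list had a member, while 6 of them had another LV-MEIS1 peak, beside 2933 of 20052 genes with any such peak. ITGB1, which the study reports as increased with MEIS1, is not on that list. It had a member at 5.66, 22278 bp upstream of the annotated TSS but inside the GENCODE gene model of ITGB1. The shares of these last 3 lists are close to the 2.43% of all protein-coding genes with a member, or rest on a count of 0 or 1.

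By chromosome, members numbered 104 on 1, 85 on 7, 67 on 12 and 65 on 3. Chromosome 8 had the largest share of its LV-MEIS1 peaks among the members, 52 of 239 (21.8%), against 14.5% of the whole list, and chromosome X the smallest above 0, 6.41%. The background level computed from pileup and fold enrichment was higher on chromosomes 1, 3, 7 and 12, with medians of 1.38 to 1.44 times the genome level, than on the other 19 chromosomes with a member, where it was at most 1.10 times. Median pileup over the members of those 4 chromosomes was 29.9 and median fold enrichment 5.87, against 28.8 and 6.55 on the others. Fold enrichment divides by this background, so equal pileups give lower values on those 4 chromosomes. They held 37.1% of the members, 35.4% of the LV-MEIS1 peaks and 39.1% of the HOXB13ko-LV-MEIS1 peaks.

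**Figure D5:**
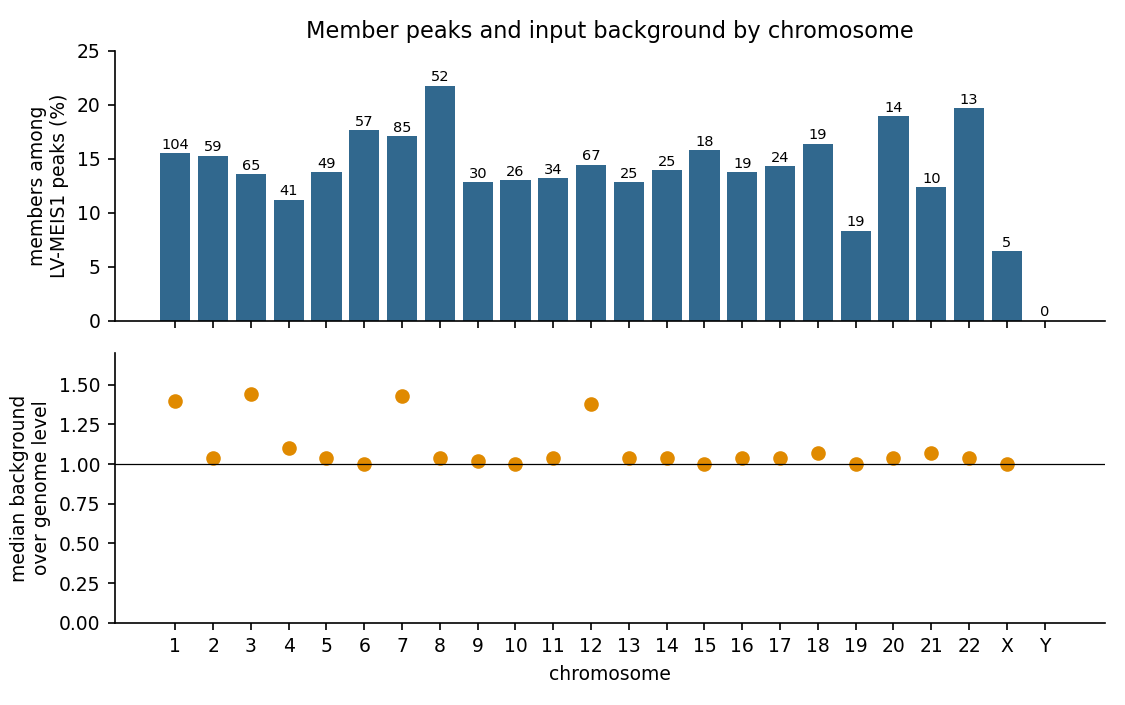
Share of each chromosome's LV-MEIS1 peaks that are members (upper panel, percent, with the number of members above each bar) and median background at members over the genome level (lower panel, ratio, 1 as a line), by chromosome. Chromosome 8 has the highest share, 21.8%, and chromosomes 1, 3, 7 and 12 have backgrounds of 1.38 to 1.44.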

How the data were processed

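MEIS1 ChIP-seq peak lists were taken for LV-MEIS1 and HOXB13ko-LV-MEIS1 cells, 1 per line, with their HOMER annotations. The authors trimmed reads of 50 bp (Trimmomatic 0.38), removed duplicates (Picard 2.18.10), aligned to hg38 with Bowtie2, pooled the immunoprecipitations of a line and called peaks against the input named in both headers with MACS2 2.1.2 (extension 200 bp, q of 0.01). HOMER 4.9.1 gave the annotation. The deposited signal is the scaled pileup at the summit. The deposited fold enrichment is a ratio of that pileup to local background, and the authors' p-value and q-value are −log10 values of a Poisson test. The deposited distances are base pairs from the annotated TSS.

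Members followed the rule given in the results. The members, the gene lists and the 2-bp arrangement were chosen with earlier results of these data known. Summit windows were read from hg38 and searched on both strands for 15 words and their 2-bp arrangement. The paired test was tested on simulated data. Named genes were those of the 10 strongest members, up to 10 gene names with at least 3 members, the 10 strongest with the arrangement (9 existed, of which 1 is not reported here), up to 5 per gene list by fold enrichment, and the members at the limits of distance and of overlap. Since 13 names tied at the lower end of the second group, all are named. TMPRSS2, ERRFI1, SLC45A3, FOXO3, ITGB1, PAX8, RALB and the retained peaks fall outside this rule and were picked with their values in view. Wilson and difference intervals (Newcombe) cover counting error only. Analyses used Python 3.11.15, pandas 2.3.3, SciPy 1.17.1 and matplotlib 3.10.9. Alternatives covered peak threshold, chromosomes, overlap, distance limit, window, flank and word.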

Additional observations from a re-analysis of the deposited data

How the results depend on the processing

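Of 60 alternative values for the 7 results, 54 were counted as unchanged, which for tested results means the same direction and side of the threshold. The 54 include all 6 values for the number of members, a count with neither direction nor threshold. The number of members ran from 627 (limit of 50 kb) to 878 (overlap of at least 0.5 of the peak). At summits, TGACA exceeded its flank share by 31.5 to 40.3 percentage points and TTTAT by 11.95 to 18.2. TGACAG in place of TGACA gave 23.1 and CAATAAA in place of TTTAT 3.98, and each of these alternatives was past the threshold. The arrangement of cores passed only when TGACA and TTTA were searched in place of TGACA and TTTAT, with an excess of 1.33 points (adjusted exact p = 0.0284), against adjusted exact p from 0.0514 to 0.240 under its other alternatives. The difference in TGACA from retained peaks turned to -1.19 points with a fold enrichment of at least 5, -0.240 on chromosomes 1 to 22, X and Y, -4.89 within 25 bp and -3.38 with TGACAG. The difference from peaks beyond 100 kb turned to 4.04 points with TGACAG. No difference between groups passed the threshold in any alternative, and the cause of the turns was not tested. No paired analysis was possible because each line has 1 pooled list, and for the same reason no replicate could be left out. The HOXB13ko-LV-MEIS1 pool held 105763683 tags against 202428594, and the part of depth in the absence of a peak there was not tested.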

Other observations

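CpG islands underlay 60 members (6.93%). Their median fold enrichment was 5.57, against 6.34 for the other 806. TGACA was in 58.3% of them and 57.1% of the others, while TTTAT was in 3.33% and 52.4%.

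The longest run of members with at most 50 kb between neighbors held 6, and 178 members (20.6%) stood in 80 such runs. The 8-base word TGACAGCT, which joins the MEIS core to the inner bases of an E-box, was at 42 summits and in 4 lower and 4 upper flanks. AGTAAACA, a forkhead-type word read from the other strand, was at 41 summits and in 5 and 5 flanks.

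Some members close to HOXB13ko-LV-MEIS1 peaks lay in families of near-identical sequence. The pair annotated to LOC102723360 on chromosome 21 had fold enrichments of 5.66 and 5.71, 33106 and 33085 bp from its TSS, and 67 and 71 bp from knockout peaks of 4.50 and 4.91. Reads from such copies could not be told apart here.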
